A study of Homo sapiens with 12 samples.

Results

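Oxidative phosphorylation is carried out by 5 enzyme complexes of the inner mitochondrial membrane, and the genes described here are those of its subunits that lie in the nuclear genome. Members were taken by gene symbol, without use of any measured value, and 74 of the 28278 genes in the table matched: 37 of complex I, 4 of complex II, 8 of complex III, 10 of complex IV and 15 of complex V. RNA was counted by MARS-seq, which reads the 3′ ends of transcripts, in OCI-Ly7, a human cell line of diffuse large B-cell lymphoma, taken from a pleural effusion. Untreated cells of 4 genotypes were compared: an EZH2 mutant line with the gain-of-function change EZH2 Y646N (2 libraries), a KMT2D mutant line labelled kmt2d-/- (3 libraries), a double mutant line carrying both changes (3 libraries) and the wild-type parent (3 libraries). The mutants were made by CRISPR on the wild-type background, and the labels do not say whether a mutant line is 1 clone or several, so the mutation and other differences between lines cannot be told apart. EZH2 mutant replicate 3 is listed in the series but has no counts in the table used, so it was not analysed here. EZH2 is the catalytic subunit of Polycomb repressive complex 2, which methylates histone H3 at lysine 27, and KMT2D methylates histone H3 at lysine 4.

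In the respiratory chain, complex I takes electrons from NADH and complex II from succinate, and both pass them to coenzyme Q. Complex III hands them on to cytochrome c and complex IV to oxygen, and the protons that complexes I, III and IV pump drive complex V, the ATP synthase. A few core subunits of complexes I, III, IV and V are encoded by the mitochondrial genome, none of whose genes were in the table. Complex I has catalytic core subunits and many accessory subunits, and complex V joins a rotating ring of c subunits in the membrane to a catalytic head, F1.

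Library totals ran from 1118710 to 3107871 counts, with EZH2 mutant replicate 1 the shallowest. The summed B-cell markers lay between 9606 and 12126 CPM (counts scaled to a library total of 1000000) in the EZH2 mutant, 6630 and 8009 in KMT2D mutant libraries, 8641 and 9386 in double mutant libraries and 7646 and 10263 in wild type. The 12 T and NK cell markers summed to 1.79 to 6.41 CPM in the EZH2 mutant, 28.0 to 38.0 in KMT2D mutant libraries, 2.82 to 6.00 in double mutant libraries and 11.4 to 22.8 in wild type, with CD3D, CD2, CD7 and CD8A at 0 in all libraries. The 10 myeloid markers summed to 12.5 to 12.8 CPM in the EZH2 mutant, 11.5 to 16.2 in KMT2D mutant libraries, 4.23 to 6.00 in double mutant libraries and 19.4 to 33.6 in wild type, with FCGR3A, CSF1R, S100A8, S100A9 and MPO at 0 throughout. The 10 of fibroblasts and epithelium summed to 0.458 to 0.894, 1.44 to 5.47, 1.76 to 5.64 and 3.93 to 5.69 CPM in the same 4 lines, with COL1A2, COL3A1, DCN, LUM, KRT18 and KRT19 at 0 throughout, and the 5 erythroid markers were at 0. These sums differ between lines, and their part in the results was not tested. The mutated genes themselves check no genotype here, since 3′ counts show neither change: EZH2 was at log2 -0.23 (SE 0.17) in the EZH2 mutant and KMT2D at log2 0.19 (SE 0.27) in the KMT2D mutant, both against wild type and neither past the test.

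Of the 74 members, 63 had enough counts to be tested among 8813 tested genes: 34 of complex I, 3 of complex II, 5 of complex III, 9 of complex IV and 12 of complex V. The other 11 were listed at 1 to 55 counts summed over all 11 libraries. They were NDUFA4 (2 counts), NDUFA5 (1), NDUFA9 (10), SDHC (37), UQCRB (1), UQCRQ (29), UQCRFS1 (4), COX7B (32), ATP5F1E (37), ATP5MC3 (11) and ATP5PB (55). These are subunits that respiring cells use, among them the Rieske iron-sulfur protein UQCRFS1 and the membrane anchor SDHC, so the table does not give their levels. A pseudogene with the member's name is annotated for 9 of these 11 and for 35 of the 63 tested members, and whether the counting lost reads to such copies was not tested. NDUFA4 falls under complex I by its symbol, although its protein is now counted with complex IV.

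Promoters from RefSeq (GRCh38.p14), 250 bases before to 50 bases after the gene start, were matched for 61 of the 74 members. They were searched on both strands for GCGCATG (the core of the NRF1 site), CCGGAAG (the site of ETS factors such as GABPA), AAGATGG (YY1) and CACGTG (the E-box that MYC binds); NRF1, GABPA and YY1 are known as regulators of nuclear respiratory genes. The promoters of 4 members that lead the comparisons or stand as a contrast to them are shown, each 5′ to 3′ on the strand of its gene, with every match to these letters or their complement in capitals. They are those of ATP5MC1 (chr17:48892537-48892836, plus strand) and its paralog ATP5MC2 (chr12:53676034-53676333, minus strand), of the succinate dehydrogenase subunit SDHB (chr1:17053983-17054282, minus strand) and of COX5B (chr2:97645812-97646111, plus strand).
ATP5MC1: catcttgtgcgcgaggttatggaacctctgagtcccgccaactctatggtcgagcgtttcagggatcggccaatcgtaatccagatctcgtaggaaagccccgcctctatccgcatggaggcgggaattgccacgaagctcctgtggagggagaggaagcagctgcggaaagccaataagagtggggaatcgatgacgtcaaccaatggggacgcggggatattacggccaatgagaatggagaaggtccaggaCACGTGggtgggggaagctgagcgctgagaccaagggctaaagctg
ATP5MC2: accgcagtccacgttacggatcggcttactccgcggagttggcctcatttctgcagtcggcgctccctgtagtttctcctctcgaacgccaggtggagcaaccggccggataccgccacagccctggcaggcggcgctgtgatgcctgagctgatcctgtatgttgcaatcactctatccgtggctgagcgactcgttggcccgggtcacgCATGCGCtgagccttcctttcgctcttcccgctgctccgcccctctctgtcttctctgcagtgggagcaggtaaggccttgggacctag
SDHB: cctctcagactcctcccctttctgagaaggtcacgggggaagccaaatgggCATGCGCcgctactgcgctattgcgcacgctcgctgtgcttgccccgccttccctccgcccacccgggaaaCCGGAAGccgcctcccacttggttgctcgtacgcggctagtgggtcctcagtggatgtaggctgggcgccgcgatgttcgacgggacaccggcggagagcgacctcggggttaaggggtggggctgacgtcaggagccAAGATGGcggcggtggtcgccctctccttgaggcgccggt
COX5B: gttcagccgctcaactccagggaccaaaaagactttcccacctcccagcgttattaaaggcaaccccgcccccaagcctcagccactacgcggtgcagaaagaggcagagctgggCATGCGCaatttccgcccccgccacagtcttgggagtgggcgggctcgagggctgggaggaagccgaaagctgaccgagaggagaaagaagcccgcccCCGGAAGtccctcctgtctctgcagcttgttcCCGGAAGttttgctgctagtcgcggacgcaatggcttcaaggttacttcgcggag

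GCGCATG was in 14 of the 61 member promoters (23.0%) and in 4.7% of all 27305 promoters, and among genes with enough counts to test in 25.9% of 54 member promoters and 8.19% of 7007 promoters. AAGATGG was in 16 member promoters (26.2%, against 6.1% of all promoters; 25.9% against 8.81% among tested genes). CCGGAAG was in 19 (31.1% against 10.7%; 33.3% against 21.8% among tested genes), and CACGTG in 7 (11.5% against 7.4%; 11.1% against 11.3% among tested genes). ATP5MC1 and ATP5MC2, which encode the same mature c subunit, differ in these letters: ATP5MC1 holds CACGTG alone and ATP5MC2 GCGCATG alone. The end of CCGGAAG can overlap the start of AAGATGG, and CACGTG reads the same on both strands. A match is a description of letters in this window and not a measured binding site.

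Compared with wild type, the EZH2 mutant had higher sums of normalised CPM for each of the 5 complexes, led by complex I and by the c subunit gene ATP5MC1. Of the 63 tested members, 37 rose, 0 fell and 26 did not pass the quasi-likelihood test of edgeR (Benjamini-Hochberg), where 17.1% of all tested genes were called higher and 15.1% lower. The tested members had a median log2 fold change of 0.49, against -0.04 over all tested genes. For the count of 0 falls, 2 members were lower at an unadjusted p under 0.05, and DESeq2 and limma-voom called 0. Members are well expressed, with a median of 323 CPM against 28.9 CPM for tested genes, and well expressed genes were called higher more often in this line: of the genes with a mean of at least 100 CPM, a class chosen after values were seen, 37.6% were called higher, against 35 of the 54 members in that class. Within that class the median log2 fold change was 0.51 over the 54 members and 0.26 over all genes. In bulk RNA, more RNA of a gene per cell and more cells that express it cannot be told apart. All values are relative to the other genes of the library.

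By complex, 23 of 34 tested complex I genes rose (median log2 fold change 0.61), as did 1 of 3 in complex II (median -0.03), 2 of 5 in complex III (0.28), 6 of 9 in complex IV (0.45) and 5 of 12 in complex V (0.22). No test of one complex against another was made, and with upper-quartile scaling, which moves the median of all genes to -0.20, the 5 medians were 0.44, -0.20, 0.11, 0.28 and 0.06. Summed over all its listed members, complex I had 12498 and 11871 normalised CPM in the EZH2 mutant libraries, against 7983, 8146 and 7631 in wild type, a ratio of means of 1.54. The complex IV sum was 7489 and 7474 in the EZH2 mutant, against 5559, 6159 and 5236 in wild type (ratio 1.32). The complex I, III, IV and V sums did not overlap between these lines. The complex II sum did not either, though narrowly, at 579 and 675 in the EZH2 mutant, against 529.6, 570.2 and 498 in wild type (ratio 1.18). Of the 3 tested complex II members, SDHB had a higher mean in the EZH2 mutant than in wild type (314 against 203 CPM). The means of SDHA (264 against 271) and SDHD (47.0 against 57.8) were lower. Complex III stood at a ratio of 1.30 and complex V at 1.26. All these sums are scaled by library factors (TMM), which were 0.875 and 0.926 in the EZH2 mutant, against 1.015, 1.055 and 1.065 in wild type. A lower factor raises the scaled values, so the separation of the sums depends in part on this scaling. As a share of all member counts, complex I took 41.7% and 39.7% in the EZH2 mutant, against 36.8%, 36.1% and 36.5% in wild type.

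**Figure D1:**
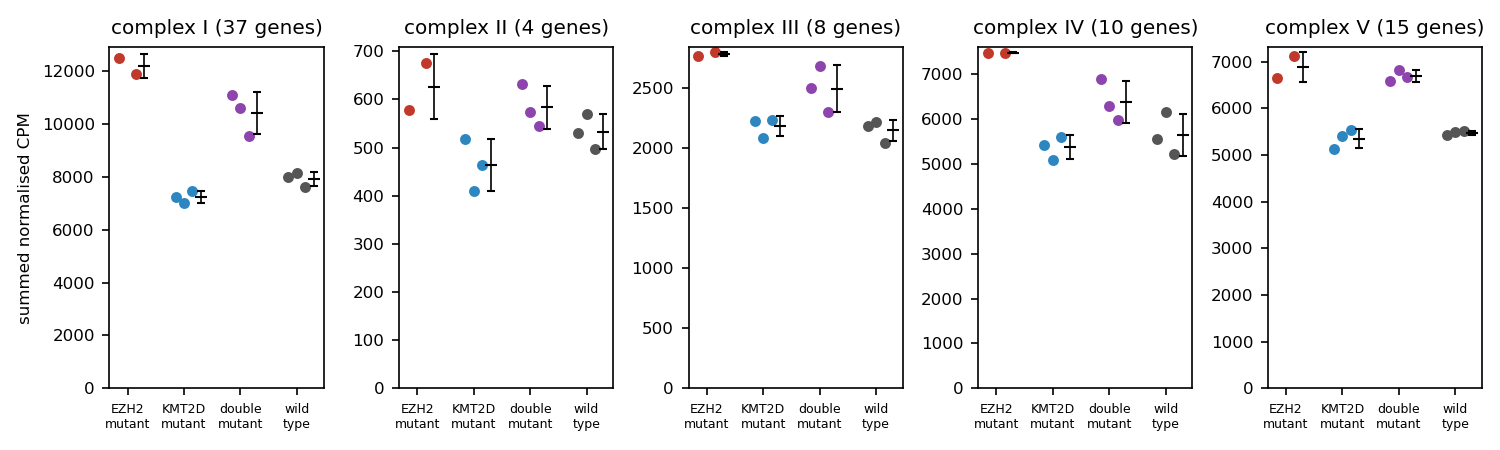
Summed normalised CPM of the members of each complex (vertical axis, from 0) in each library (points) of the 4 lines, with the mean and SD to the right of the points. The 2 EZH2 mutant libraries lie above the 3 wild-type libraries in each complex, and the 3 KMT2D mutant libraries lie below them in complex I.

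**Figure D2:**
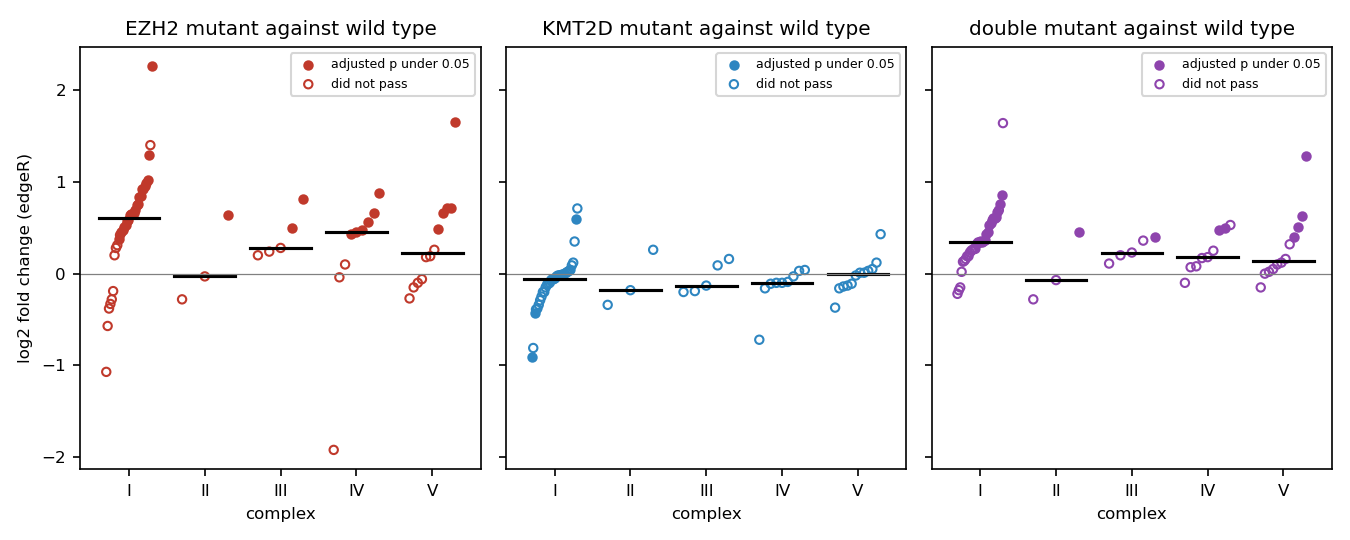
Log2 fold change of each tested member against wild type (vertical axis) by complex (horizontal axis) in 3 mutant lines, in order of size within a complex; filled points passed the quasi-likelihood test of edgeR (Benjamini-Hochberg) at 0.05, and bars are medians. Filled points lie above 0 in the EZH2 mutant (37) and the double mutant (22), while for the KMT2D mutant 1 lies above and 2 below; the 3 comparisons share the wild-type libraries.

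Within complex I, 4 of the 7 core subunits encoded in the nucleus rose: NDUFS3 (log2 0.65), NDUFS7 (0.75), NDUFS8 (0.85) and NDUFV1, which binds NADH (0.76). NDUFS1 (-0.28) and NDUFV2 (-0.33) did not pass and had fitted values below 0. NDUFV2 was called lower with upper-quartile scaling and after removal of GC and abundance trends. Of 27 tested accessory subunits, 19 rose. These role groups were drawn up after values were seen. NDUFB2, an accessory subunit (chr7:140690777-140722790, plus strand, GRCh38 in GENCODE 29), had 289.9 and 376 normalised CPM in the EZH2 mutant libraries, against 138, 173 and 97.8 in wild type. Its libraries did not overlap, and it was higher at log2 1.29 (SE 0.21, Benjamini-Hochberg adjusted p = 2.92e-04, edgeR quasi-likelihood test). NDUFC2, another accessory subunit, had the highest fitted value at log2 2.26 (SE 0.73), but on few counts, with 10.2 and 4.47 CPM against 0, 2.04 and 1.53 in wild type. NDUFC2 overlaps an annotated readthrough gene, so its counts are uncertain. NDUFB9 was the remaining complex I member called at 2-fold or more, at log2 1.02, and NDUFV3, at log2 1.40 (SE 0.58) and also on few counts, did not pass.

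In complex II, the iron-sulfur subunit SDHB (chr1:17018722-17054170, minus strand) had 294 and 335 normalised CPM in the EZH2 mutant, against 207, 204 and 197 in wild type. Both EZH2 mutant libraries were above all wild-type libraries, at log2 0.64 (SE 0.13, Benjamini-Hochberg adjusted p = 0.001, edgeR quasi-likelihood test). The flavoprotein subunit SDHA had 243 and 285 CPM in the EZH2 mutant, against 280.1, 299.6 and 233 in wild type, with overlapping libraries and log2 -0.03 (SE 0.16). SDHD, a membrane anchor, was at 41.0 and 53.1 CPM in the EZH2 mutant, against 41.9, 65.3 and 66.3 in wild type (log2 -0.28, SE 0.23), and did not pass. The catalytic partners SDHA and SDHB thus had different calls, and their difference was not tested.

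In complex III, the 2 small subunits UQCR11 and UQCR10 rose. UQCR11 had 650.4 and 548 normalised CPM in the EZH2 mutant, against 353, 354 and 316 in wild type, with no overlap (log2 0.81, SE 0.13, Benjamini-Hochberg adjusted p = 1.83e-04, edgeR quasi-likelihood test). UQCR10 was at log2 0.50 (SE 0.13). The core proteins UQCRC1 (log2 0.28) and UQCRC2 (0.24) and the hinge protein UQCRH (0.20) did not pass. In complex IV, COX5B (chr2:97646040-97648383, plus strand), a subunit of the matrix side, had 1082 and 892 normalised CPM in the EZH2 mutant, against 554, 548 and 501 in wild type. It did not overlap either and was higher at log2 0.88 (SE 0.14, Benjamini-Hochberg adjusted p = 1.07e-04, edgeR quasi-likelihood test). COX6B1 (0.66), COX5A (0.56), COX6A1 (0.48), COX4I1 (0.45) and COX7C (0.43) also rose on the log2 scale. COX8A (-0.04), COX6C (0.10) and COX7A2 (-1.92) did not pass.

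Complex V held the tested member with the smallest adjusted p. ATP5MC1 (chr17:48892765-48895871, plus strand), 1 of 3 genes for the c subunit of the rotor ring, had 648 and 755 normalised CPM in the EZH2 mutant, against 204, 240.1 and 226 in wild type, with a mean of 701 ± 75.1 (SD, n = 2) against 223 ± 18.4 (SD, n = 3). Its log2 fold change was 1.65 (SE 0.15, Benjamini-Hochberg adjusted p = 6.12e-07, edgeR quasi-likelihood test), and the call held in each of the 21 alternatives run. ATP5MC2, its paralog with the same mature product, had 1485 and 1172 normalised CPM in the EZH2 mutant, against 1344, 907 and 1085 in wild type. These libraries overlapped, and ATP5MC2 did not pass (log2 0.26, SE 0.16). ATP5MC3 had too few counts to test. The difference in response between the paralogs was not tested.

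Among the other parts of the ATP synthase, 1 of 4 tested subunits of the F1 head rose, ATP5F1D, the delta subunit of the central stalk (log2 0.71). The catalytic beta subunit ATP5F1B (-0.15), the alpha subunit ATP5F1A (-0.10) and the gamma subunit ATP5F1C (-0.27) did not pass. In the peripheral stalk 1 of 3 rose, ATP5PF (0.49), while ATP5PD (0.19) and ATP5PO (0.18) did not pass. Of the small membrane subunits, ATP5MF (0.72) and ATP5ME (0.66) rose and ATP5MG (-0.06) did not pass.

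**Figure D3:**
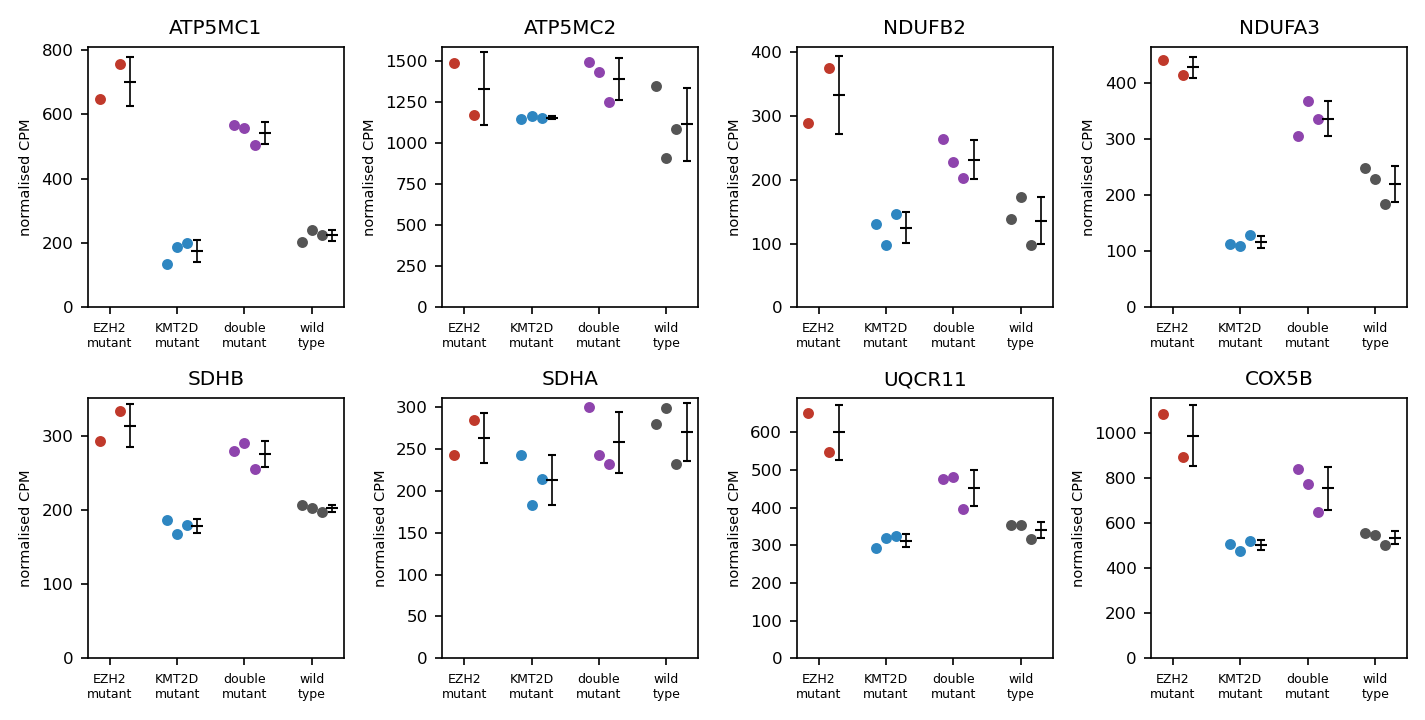
Normalised CPM (vertical axes, from 0) of 8 members in each library (points), with the mean and SD of each line to the right. ATP5MC1, NDUFB2, SDHB, UQCR11 and COX5B stand higher in both EZH2 mutant libraries than in wild type, ATP5MC2 and SDHA overlap between these lines, and NDUFA3 is lower in the 3 KMT2D mutant libraries than in wild type.

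The libraries of the EZH2 mutant lay above all wild-type libraries for 39 members and below them for 3, and overlapped for 21; over all tested genes 27.2% lay above and 27.7% below. The members called higher differed from the rest in the base composition of the counted 3′ ends. The GC content of the last 500 transcript bases had a median of 50.6% in the 37 members called higher and 42.0% in the other 26, and of 52.2% in all 1511 tested genes called higher, against 44.7% over tested genes. Across the 63 members, which share libraries, GC content and log2 fold change had a Pearson r of 0.32 and a Spearman rho of 0.44. After removal of the GC trend of each library 40 members rose. The median of the tested members was then 0.56, and that of all tested genes moved from -0.04 to 0.08. After removal of GC and abundance trends together 27 rose (17, 1, 3, 3 and 3 in complexes I to V) and 3 fell, among them NDUFV2 and COX8A. Of the 37 calls, 17 held under every alternative run, and 27 members were called higher without EZH2 mutant replicate 2.

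**Figure D4:**
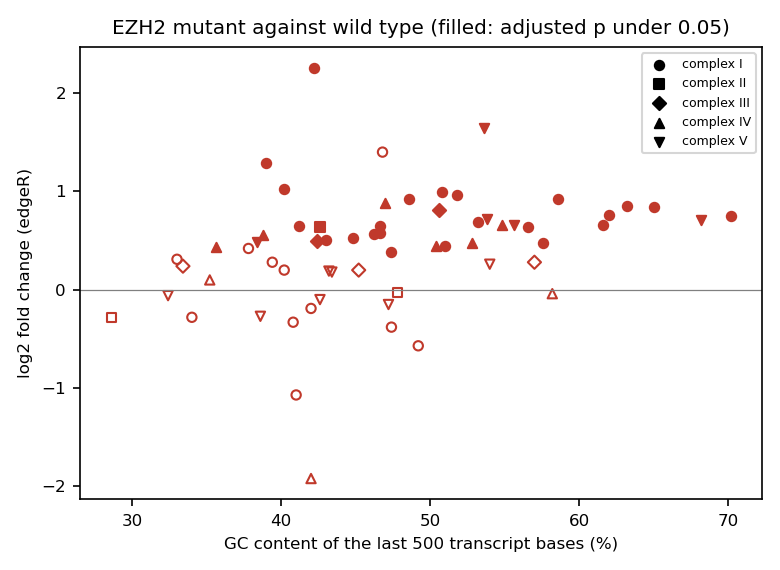
Log2 fold change in the EZH2 mutant against wild type (vertical axis) and GC content of the last 500 transcript bases (horizontal axis, %) of the 63 tested members; filled symbols passed the quasi-likelihood test of edgeR (Benjamini-Hochberg) at 0.05, and symbol shapes mark complexes. Members called higher spread from 35.6% to 70.2% GC, with a median of 50.6% against 42.0% for the others.

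In the KMT2D mutant against wild type, 1 of 63 tested members rose, NDUFB5, and 2 fell, NDUFA3 and NDUFS7, all of complex I, where 3.18% of all tested genes were called higher and 4.48% lower. Few genes of any kind were called in this line. The median log2 fold change of members was -0.06, against 0.00 over all tested genes. In the class of at least 100 CPM it was -0.10 over members and -0.09 over all genes. Above all wild-type libraries lay 2 members and below them 11 (13% and 13.8% of all tested genes). The complex sums were 0.913 (I), 0.870 (II), 1.02 (III), 0.952 (IV) and 0.978 (V) times the wild-type means.

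NDUFA3, an accessory subunit of complex I (chr19:54102728-54109257, plus strand), had 112, 109 and 129 normalised CPM in the KMT2D mutant, against 248, 228 and 184 in wild type. The 3 KMT2D mutant libraries lay below all wild-type libraries, at log2 -0.91 (SE 0.13, Benjamini-Hochberg adjusted p = 2.48e-04, edgeR quasi-likelihood test), and this call held in every alternative run. NDUFA3 lies in the distal stretch of chromosome 19, from ZNF383 on, whose 303 tested genes had a median log2 fold change of -0.81 in this line, and it is the 1 tested member there; gene dosage in that stretch was not tested. The 8 tested members elsewhere on chromosome 19 include NDUFS7, a core subunit with an iron-sulfur cluster. It had 264, 286 and 256 CPM in the KMT2D mutant and 414, 328 and 346 in wild type (log2 -0.43, SE 0.13). The NDUFS7 call was lost in 9 of 21 alternatives. NDUFB5, another accessory subunit, had 169, 143 and 154 CPM in the KMT2D mutant, against 84.9, 113 and 110.4 in wild type (log2 0.60, SE 0.14, Benjamini-Hochberg adjusted p = 0.0119, edgeR quasi-likelihood test). Its call was lost without KMT2D mutant replicate 1 and without wild type replicate 1.

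In the double mutant, 22 of 63 tested members rose against wild type, 0 fell and 41 did not pass, where 12.1% of all tested genes were called higher and 11.6% lower. The median log2 fold change was 0.27, against -0.01 over all tested genes. By unadjusted p under 0.05, DESeq2 and limma-voom the count of falls was also 0. In the class with a mean of at least 100 CPM, 22 of 54 members and 25.7% of all genes were called higher. The median log2 fold change in that class was 0.27 over members and 0.17 over all genes. The rises were 14 of 34 in complex I (median 0.35), 1 of 3 in complex II (-0.07), 1 of 5 in complex III (0.23), 2 of 9 in complex IV (0.18) and 4 of 12 in complex V (0.14). Without wild type replicate 3, 14 members were called higher. The libraries of the double mutant lay above all wild-type libraries for 25 members and below for 0, where the shares of all tested genes were 19.9% and 18.4%.

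ATP5MC1 had 567, 557 and 504 normalised CPM in the double mutant, against 204, 240.1 and 226 in wild type. It was the 1 member called at 2-fold or more, at log2 1.28 (SE 0.14, Benjamini-Hochberg adjusted p = 2.77e-06, edgeR quasi-likelihood test), and ATP5MC2 did not pass (log2 0.32, SE 0.14). The accessory complex I subunit NDUFB7 had 558, 452 and 332 CPM in the double mutant, against 221, 269 and 249 in wild type, with no overlap (log2 0.86, SE 0.17). SDHB was at 281, 291 and 256 CPM in the double mutant, all above wild type (log2 0.45, SE 0.12), while SDHA (-0.07) and SDHD (-0.28) did not pass. NDUFB2 (0.76), UQCR11 (0.40), COX5B (0.50), COX6B1 (0.48) and ATP5MF (0.63) also rose on the log2 scale. The call of COX6B1, whose libraries overlap, was lost in 8 of 21 alternatives and that of UQCR11 in 7, and 14 of the 22 calls held under every alternative run. The 4 complex I core subunits that rose in the EZH2 mutant, NDUFS3, NDUFS7, NDUFS8 and NDUFV1, were at log2 0.45, 0.58, 0.67 and 0.62 here. Both comparisons use the same wild-type libraries.

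Set directly against the EZH2 mutant, the double mutant had 0 members higher and 2 lower, where 0.715% of all tested genes were called higher and 1.58% lower. For the count of 0, 1 member was higher at an unadjusted p under 0.05, and DESeq2 and limma-voom called 0. The complex I subunit NDUFA2 had 380.5, 344 and 273 normalised CPM in the double mutant, against 501 and 473 in the EZH2 mutant (log2 -0.55, SE 0.14, Benjamini-Hochberg adjusted p = 0.0423, edgeR quasi-likelihood test). COX7C of complex IV had 814, 872 and 930.4 CPM in the double mutant, against 1235 and 1283 in the EZH2 mutant (log2 -0.53, SE 0.13). Neither call is stable: COX7C lost it in 9 and NDUFA2 in 11 of 21 alternatives, among them leaving out either EZH2 mutant library. The members' median was -0.17, against -0.01 over all tested genes. Fitted values lay above 0 for 18 of 63 members and for 4324 of 8813 tested genes. In the class of at least 100 CPM, the median was -0.18 over members and -0.10 over all genes. Fitted values above 0 in that class were 13 of 54 and 631 of 1832. The double mutant libraries lay above both EZH2 mutant libraries for 1 member and below for 22 (13.3% and 17.2% of all tested genes).

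Against the KMT2D mutant, the double mutant had 26 members higher, 3 lower and 34 not past the test, where 21.2% of all tested genes were called higher and 20.8% lower. In the class of at least 100 CPM, 26 of 54 members and 43.2% of all genes were called higher. The median log2 fold change in that class was 0.35 over members and 0.27 over all genes. Over all tested members the median was 0.36, against -0.02 over all tested genes. By complex, 16 rose and 1 fell of 34 in complex I, and 1 and 1 of 3 in complex II. The numbers were 3 and 0 of 5 in complex III, 3 and 0 of 9 in complex IV and 3 and 1 of 12 in complex V. The double mutant libraries lay above all KMT2D mutant libraries for 30 members and below for 3 (26.3% and 27% of all tested genes). ATP5MC1 had 567, 557 and 504 normalised CPM in the double mutant, against 135, 187 and 201 in the KMT2D mutant (log2 1.65, SE 0.14, Benjamini-Hochberg adjusted p = 6.48e-08, edgeR quasi-likelihood test). NDUFA3 was at 305, 368 and 336 CPM in the double mutant, against 112, 109 and 129 in the KMT2D mutant (log2 1.52, SE 0.14), and NDUFS6 (0.92) and NDUFS7 (1.02) also rose. NDUFA3 lies in the distal stretch of chromosome 19 described above. Against wild type it was called lower in the KMT2D mutant (log2 -0.91) and higher in the EZH2 mutant (0.96) and the double mutant (0.61). The 3 lower members were NDUFB5, with 89.8, 86.9 and 95.9 CPM in the double mutant against 169, 143 and 154 in the KMT2D mutant (log2 -0.78), SDHD (log2 -0.54, and 0.09 with the GC trend removed) and ATP5F1C (log2 -0.58). After removal of GC and abundance trends 16 members rose.

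The interaction, which asks whether the effect of mutant EZH2 differs between cells without and with KMT2D, called 0 members higher and 0 lower by the quasi-likelihood test of edgeR (Benjamini-Hochberg), where 1.5% and 1.52% of all tested genes were called. At an unadjusted p under 0.05 it gave 2 higher and 6 lower, and DESeq2 and limma-voom called 0 each way. The members' median was -0.08. For ATP5MC1 it was -0.01 (SE 0.21) and for SDHB -0.02 (SE 0.17) on the log2 scale, values that do not show that the effects are equal.

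Genes that build or feed the chain were described by lists, again beside the 17.1% of tested genes called higher in the EZH2 mutant. Of subunits and isoforms outside the symbol rule, 3 of 8 tested rose and 2 fell: cytochrome c1 CYC1 (log2 0.81) and the acyl carrier protein NDUFAB1 (1.04) were among the rises, and the supercomplex factor COX7A2L (-0.76) and NDUFA4L2 (-1.27) fell. Complex I assembly factors rose in 6 of 16 cases, with NDUFAF8 at log2 1.36 and ACAD9 at 0.92. Complex III assembly factors rose in 2 of 5, UQCC1 (0.86) and BCS1L (0.84), and complex IV assembly factors in 4 of 19, including COA4 (1.07) and the copper chaperone SCO2 (1.01). Of 4 complex II assembly factors 0 rose and 0 fell by edgeR, also at an unadjusted p under 0.05 and by DESeq2 and limma-voom. Of 4 for the ATP synthase ATPAF2 rose (0.52) and ATPAF1 fell (-2.39).

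Mitochondrial import genes rose in 10 of 20 tested cases and fell in 1, with the intermembrane space chaperones TIMM13 (log2 1.49), TIMM8B (1.16) and TIMM10 (0.89) and the matrix chaperone HSPD1 (0.85). Of 15 regulators of mitochondrial gene expression 4 rose, the nuclear receptor ESRRA (1.37), the mitochondrial RNA polymerase POLRMT (0.79), the helicase TWNK (1.13) and the coactivator PPRC1 (0.77). In the tricarboxylic acid cycle 4 of 15 rose, among them OGDH (0.87) and IDH3B (0.64), and 1 fell. Coenzyme Q synthesis and electron transfer flavoproteins went both ways, with 2 of 13 higher, including COQ4 (1.19), and 1 lower, COQ8A (-0.90). Of 6 carriers and channels 0 were called by edgeR, DESeq2 or limma-voom, and 1 was lower at an unadjusted p under 0.05.

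In the double mutant against wild type, where 12.1% of all tested genes were called higher and 11.6% lower, rises were 2 of 8 other subunits and isoforms, 4 of 16 complex I assembly factors, 1 of 5 of complex III, 2 of 19 of complex IV and 1 of 4 of the ATP synthase. They were 3 of 15 regulators, 2 of 15 in the tricarboxylic acid cycle and 7 of 20 import genes, and 0 of 4 complex II assembly factors and 0 of 6 carriers and channels, where an unadjusted p under 0.05, DESeq2 and limma-voom also gave 0. Over these lists 0 fell by edgeR, DESeq2 or limma-voom, and 4 were lower at an unadjusted p under 0.05. Of 13 coenzyme Q genes 1 rose and 1 fell. TIMM13 (log2 0.91), ESRRA (0.92) and NDUFAB1 (0.50) were among the rises. In the KMT2D mutant against wild type, where 3.18% of all tested genes were called higher and 4.48% lower, there were 1 rise and 2 falls among 13 coenzyme Q genes, 2 falls among 20 import genes, TOMM40 (log2 -0.90) and TIMM50 (-1.19), and 1 fall each among 16 complex I and 19 complex IV assembly factors, DMAC2 (-0.68) and COX17 (-0.52). Of these 6 falls 5, all but COX17, lie in the distal stretch of chromosome 19 described with NDUFA3.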

How the data were processed

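RNA of 11 libraries was analysed as the authors deposited it, in 1 table of whole-number counts per gene. Per the submitters' processing notes, Trim Galore 0.6.0, cutadapt 1.15, FastQC, STAR 2.7.0f and DESeq2 were used; the genome build, annotation and strand are not given in the sources used here, nor what the table's word "corrected" refers to. The double mutant was read from the columns marked DM. Whether replicates came from separate cultures is not in the labels, so a p-value measures the spread of these libraries alone, which may be technical.

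Counts were fitted in R 4.3.3 with edgeR 4.0.16 over all libraries, with 1 term per line, filterByExpr (minimum count 10), TMM scaling and a robust quasi-likelihood test. P-values were adjusted over all 8813 tested genes in each of 6 comparisons, and 0.05 was the threshold. Normalised CPM are counts scaled to 1000000 per TMM-scaled library, with no length correction because 3′ ends were counted, and levels of different genes are not compared. Log2 CPM used a prior count of 2. Complexes are described by counts, medians and sums, with no test. Named genes are the 2 members with the largest change per complex and comparison against wild type, all members called in comparisons with 10 or fewer calls (otherwise the 4 each way with the smallest adjusted p), the SDH genes and c subunit paralogs, and up to 4 genes per list by adjusted p; others, and the role groups, were chosen after values were seen. Some single-gene values are not reported here. The members and lists were chosen with earlier results of these data known. Gene places and GC content came from GENCODE 29 and promoters from RefSeq. The code of the fit was run on simulated counts, which checks the code and not the calls given here. Alternatives used limma 3.58.1 (voom) and DESeq2 1.42.0, other scaling and filters, trend removal, fewer groups, a block and left-out libraries. Same-numbered libraries did not deviate together throughout (r from -0.289 to 0.376), so numbers were not taken as pairs. Tables and figures were made with Python 3.11.15, pandas 2.3.3 and matplotlib 3.10.9.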

Additional observations from a re-analysis of the deposited data

How the results depend on the processing

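The counts of members called higher in the EZH2 mutant (37) and the double mutant (22) against wild type stayed within 1.5 times under each alternative run except the double mutant without wild type replicate 3 (14). The EZH2 mutant count was lowest with upper-quartile scaling (26) and highest after removal of the GC trend (40), and the double mutant count, outside left-out libraries, ran from 15 (upper-quartile scaling, and only the groups compared) to 27 (GC trend removed). The cause of the changes given here was not tested.

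Median log2 fold changes and counts that moved are given by setting. With upper-quartile scaling the medians of complexes I to V in the EZH2 mutant against wild type were 0.44, -0.20, 0.11, 0.28 and 0.06 (2 members lower), those of complexes I, III, IV and V in the double mutant against wild type 0.23, 0.11, 0.06 and 0.02, and the double against the EZH2 mutant had 1 member higher and 1 lower. With the strict filter (mean of at least 10 CPM), complexes I, III and IV were at 0.49, 0.19 and 0.36 in the EZH2 mutant (2 members lower), and the double against the EZH2 mutant again had 1 higher and 1 lower. With no filter, complex I was at 0.53 in the EZH2 mutant, complex II at 0.01 in the KMT2D mutant, complexes II, III and V at -0.23, 0.16 and 0.05 in the double mutant, all against wild type, and 7 members were lower in the double than in the EZH2 mutant. With only the groups compared, complex I was at 0.54 in the EZH2 mutant and 0 members were lower in the double than in the EZH2 mutant.

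After removal of the GC trend, complexes II, III and V were at 0.34, 0.67 and 0.40 in the EZH2 mutant and at 0.10, 0.33 and 0.25 in the double mutant. The median of all tested genes was then 0.08 in the EZH2 mutant and 0.09 in the double mutant, both against wild type. For the double against the KMT2D mutant that median was 0.12, and SDHD turned to 0.09. In this setting 4 members were lower in the double than in the EZH2 mutant, and the interaction had 1 higher and 1 lower. After removal of both trends, complexes I, III, IV and V were at 0.41, 0.40, 0.26 and 0.09 in the EZH2 mutant (3 members lower), complex III at -0.02 in the KMT2D mutant (2 members higher, 1 lower), and complexes I, IV and V at 0.23, 0.06 and 0.02 in the double mutant. The double mutant then had 1 member higher and 4 lower than the EZH2 mutant and 16 higher than the KMT2D mutant, and the interaction had 1 higher and 3 lower. With the replicate block, 35, 22 and 26 members were higher in the EZH2 mutant and the double mutant against wild type and in the double against the KMT2D mutant, and 1 was lower in the double than in the EZH2 mutant. On the given strand alone, CCGGAAG was in 13.1% of member promoters (6.0% of all promoters) and GCGCATG in 14.8% (3.1% of all).

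Leaving out 1 library at a time gave 0 to 2 members lower in the EZH2 mutant and medians of 0.53 to 0.63 in complex I, 0.17 to 0.48 in complex III and 0.18 to 0.38 in complex V. In the KMT2D mutant it gave 0 to 2 higher, 1 to 3 lower and medians of -0.18 to -0.06 in complex III and -0.10 to 0.00 in complex V. In the double mutant it gave 14 to 23 higher and medians of 0.05 to 0.27 in complex IV and 0.08 to 0.21 in complex V. The double against the EZH2 mutant had 0 to 1 higher and 0 to 2 lower. Without 1 EZH2 mutant library the other is assumed to vary like the rest. The 11 members with 1 to 55 counts could not be tested, and NDUFC2 was sparsely counted. Why these counts are low was not tested.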

Other observations

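A few members varied widely between libraries of one line, and were chosen after their values were seen. The pooled SD of log2 CPM within lines had a median of 0.18 over the 63 tested members, and among members of at least 100 CPM it was 0.16, against 0.17 for all 1832 genes of that class. It was 1.04 for COX7A2, a complex IV subunit, and 0.98 for NDUFB3, a complex I accessory subunit, followed by the sparsely counted NDUFC2 (0.78), NDUFA1 (0.62) and COX6C (0.59).

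COX7A2 had 27.7 and 87.4 normalised CPM in the EZH2 mutant libraries, 73.4, 154 and 203 in those of the KMT2D mutant, 69.1, 276 and 447 in those of the double mutant and 132, 388 and 177 in wild type. NDUFB3 had 7.17 and 30.3 CPM in the EZH2 mutant libraries, 21.3, 18.1 and 35.6 in those of the KMT2D mutant, 23.2, 48.3 and 99.96 in those of the double mutant and 21.5, 84.0 and 24.5 in wild type. Within each line both were highest in the same library: replicate 2 of wild type and of the EZH2 mutant, and replicate 3 of the KMT2D mutant and of the double mutant. Their fitted falls in the EZH2 mutant (log2 -1.92, SE 0.97, and -1.07, SE 0.95) did not pass. Annotated pseudogenes bear the names of 2 copies of COX7A2 and 0 of NDUFB3, and whether such copies have a part in this spread was not tested.

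The promoter letters were also counted by call, after values were seen and with no test. Of the 54 tested members with a promoter, 32 were called higher in the EZH2 mutant and 22 were not. CACGTG was in 6 of the 32 and 0 of the 22, GCGCATG in 10 and 4, CCGGAAG in 11 and 7, and AAGATGG in 8 and 6. The same split was not made over all tested genes, so whether it is particular to members is not known. Over the 54 members together CACGTG was about as frequent as among tested genes (11.1% against 11.3%).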
